A study of Mus musculus with 6 samples.

Results

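The cytoplasmic ribosomal protein genes are described here on 6 microarrays of mouse embryonic stem cells and their differentiating progeny. Members were the genes whose probe sets carry 1 gene symbol of the Rpl or Rps series, of the Rplp stalk series, or Rpsa. This gave 49 of the 18193 genes with such probe sets, and each gene was read from its brightest probe set by mean signal. The labels put 1 array in each of 6 groups. All groups came from cells that lack Dnmt1, Dnmt3a and Dnmt3b, the genes of the DNA methyltransferases, and that express a DNMT1 protein ubiquitously. The deletion line expresses DNMT1 without its N-terminal 602 amino acids, and the full-length line expresses the whole protein. Cells of each line were taken at day 0, in medium with 10% FBS and the cytokine LIF; at day 4, after 1 day as embryoid bodies and 3 days attached without LIF; and at day 7, after 3 more days in 10% KSR with 10 ng/ml Activin A. The DNMT1 form and the line that carries it cannot be told apart, and the labels name neither the promoter of the transgene nor the number of clones. The day 0 sample of the deletion line is titled day 0 but its source label reads differentiated cells; the title was followed.

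Levels are log2 signals of the MAS5 algorithm, and 1 log2 unit is a 2-fold difference. A gene counted as measured where its mean signal reached a floor of 5.37 log2 units, which held for 48 of the 49 members and for 13277 of all 18193 genes. No group had a replicate, so a difference between single arrays is given as a value with no test. The array medians over all measured genes lay between 8.76 and 8.96. All 7 stem cell markers, Pou5f1 and Nanog among them, were at or above the floor on each of the 6 arrays. Their summed signal in the deletion line was 101955, 85961 and 103133 at days 0, 4 and 7, against 129474, 75167 and 81410 in the full-length line. The summed signal of the 12 fibroblast markers was 25227 in the deletion line at day 0, against 10470 for its full-length counterpart, and between 3742 and 5697 on the other 4 arrays. The 8 extraembryonic endoderm markers summed to 658, 4544 and 4787 in the deletion line, against 607, 2676 and 1598 in the full-length line. The 5 neuroectoderm markers summed to 7043, 3855 and 3875 in the deletion line, against 8250, 5044 and 7031 in the full-length line.

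Each cytoplasmic ribosome joins a small subunit, which reads the mRNA, to a large subunit, which forms the peptide bond. Nearly every ribosomal protein is present once per ribosome, and the genes that encode them are spread over the genome and transcribed strongly in dividing cells such as embryonic stem cells. Their mRNAs begin with a run of pyrimidines at the cap, the TOP motif, through which mTOR signalling and LARP1 control their translation. MYC proteins raise the transcription of these genes and of the factors that assemble the ribosome.

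The start sites of 9 members are shown because they carry the results below: Rps18, Rps2, Rplp2 and Rpl11 followed the bulk of the family, Rpl37 and Rps27 stood apart from it, and Rpl22l1, Rpl39l and Rpl3l encode tissue-enriched paralogues of core proteins. Each stretch holds 30 bases before the annotated start and 20 from it on, 5′ to 3′ on the gene's strand, from RefSeq on GRCm38.p6, and capitals mark the run of at least 6 pyrimidines, where there is one, between 10 bases before and 10 after the start; runs elsewhere are not marked.
Rps18: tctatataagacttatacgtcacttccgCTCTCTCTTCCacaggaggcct
Rps2: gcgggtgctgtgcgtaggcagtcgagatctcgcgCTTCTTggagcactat
Rplp2: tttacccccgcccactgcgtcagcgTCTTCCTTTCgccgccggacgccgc
Rpl11: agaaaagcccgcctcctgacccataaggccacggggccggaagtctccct
Rpl37: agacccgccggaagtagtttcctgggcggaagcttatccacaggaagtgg
Rps27: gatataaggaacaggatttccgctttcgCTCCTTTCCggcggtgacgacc
Rpl22l1: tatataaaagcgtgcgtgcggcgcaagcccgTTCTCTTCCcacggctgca
Rpl39l: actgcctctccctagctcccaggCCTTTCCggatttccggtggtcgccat
Rpl3l: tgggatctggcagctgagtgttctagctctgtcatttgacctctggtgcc
They lie at chr17:33955646-33955695 on the minus strand for Rps18, chr17:24720033-24720082 on the plus strand for Rps2, chr7:141447621-141447670 on the plus strand for Rplp2 and chr4:136053374-136053423 on the minus strand for Rpl11. Those that stood apart lie at chr15:5116583-5116632 on the plus strand for Rpl37 and chr3:90213629-90213678 on the minus strand for Rps27. The paralogues' starts lie at chr3:28805478-28805527 for Rpl22l1, chr16:10170198-10170247 for Rpl39l and chr17:24727796-24727845 for Rpl3l, all on the plus strand. Counted within the 20 bases from 10 before to 10 after the start, the runs differ in length. They hold 11 pyrimidines in Rps18, 10 in Rplp2, 9 in both Rps27 and Rpl22l1, 7 in Rpl39l and 6 in Rps2. The run of Rpl22l1 goes on past that window, while Rpl11, Rpl37 and Rpl3l have none of 6 or more within those 20 bases.

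Most ribosomal protein genes were among the brightest on the arrays and kept to a narrow band. Over the 48 measured members, the median level in the deletion line was 14.55 at day 0, 14.80 at day 4 and 14.75 at day 7, against 14.98, 14.84 and 14.88 in the full-length line at the same days. Members made up 5.09%, 5.77% and 5.80% of the summed gene signal in the deletion line at days 0, 4 and 7, and 6.52%, 5.85% and 5.96% in the full-length line. The 2 day 0 arrays were thus the extremes, the deletion line low and the full-length line high, and the 4 later arrays lay between them. On bulk arrays, fewer cells of a type and less RNA per cell cannot be told apart. A mean level over 14.5 was held by 34 members, 3 lay between 13 and 14.5, and 11 were at 13 or below.

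**Figure D1:**
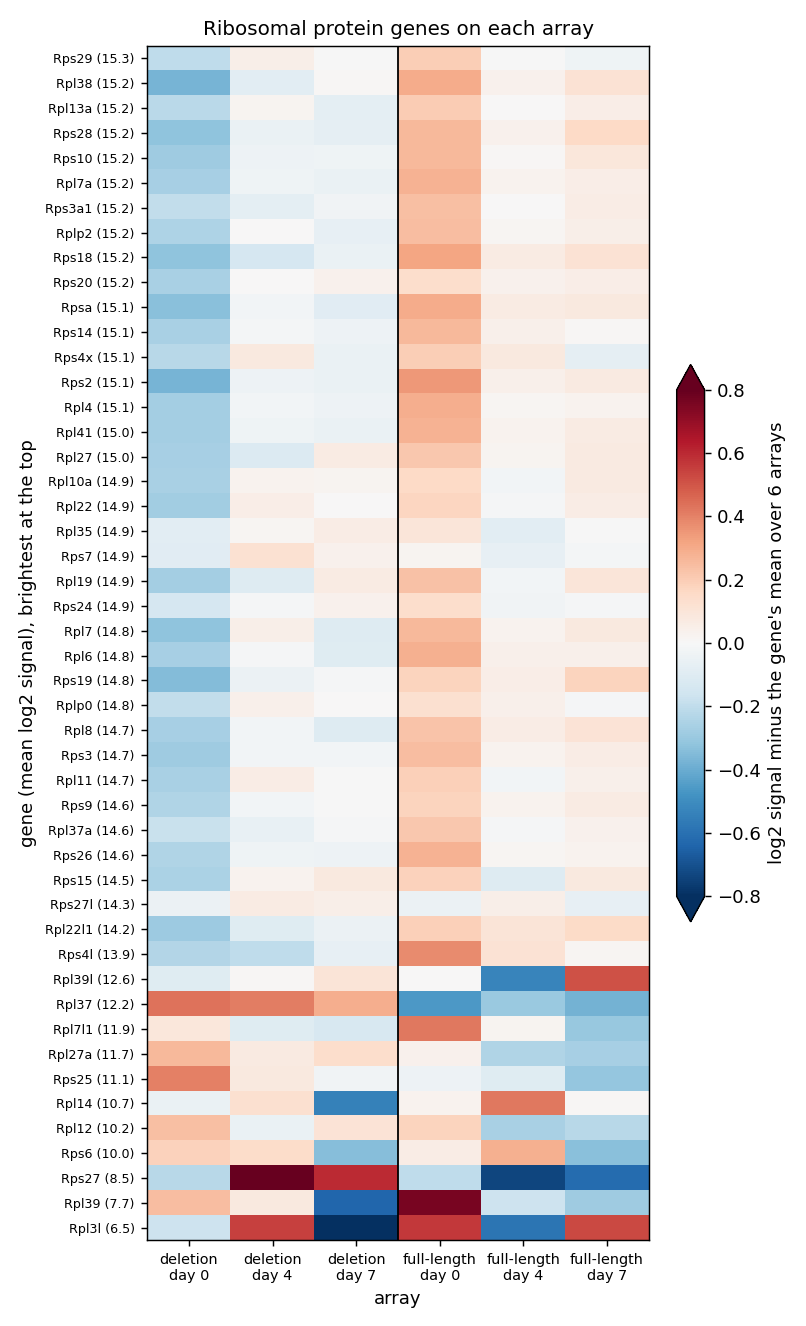
Log2 signal of each measured ribosomal protein gene (rows, brightest at the top, mean level in brackets) on each array (columns), as the deviation from the gene's own mean. Nearly all bright genes are blue on the deletion array of day 0 and red on the full-length array of day 0, and the dimmer genes at the bottom, such as Rpl37, Rps27 and Rpl3l, follow courses of their own.

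At day 0, 42 of 48 members (87.5%) were lower in the deletion line than in the full-length line, a direction that 54.4% of all measured genes had. The median difference was -0.45 log2 units over members, 1.37-fold, and -0.05 over all measured genes. It ranged from -0.73 for Rpl3l to 0.89 for Rpl37. At day 4 the median was -0.04 with 27 members lower in the deletion line (51.3% of all genes were), and at day 7 it was -0.07 with 34 lower (53.4% of all genes). None of the 48 was 2-fold apart between the lines at day 0, where 5.96% of all genes were. The day 0 offset was shared by both subunits: the median was -0.46 over the 26 large subunit genes, 23 of them lower, and -0.44 over the 22 small subunit genes, 19 of them lower.

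The small subunit genes Rps2, whose protein lies at the mRNA entry channel, and Rps18, in the head of the subunit, show the pattern. Rps2 had 14.67, 15.00 and 14.99 in the deletion line at days 0, 4 and 7, against 15.39, 15.08 and 15.11 in the full-length line. Rps18 had 14.81, 15.00 and 15.08 in the deletion line, against 15.45, 15.20 and 15.25 in the full-length line. In both genes all 3 deletion arrays lay below all 3 full-length arrays, which held for 20 of the 48 members, and the gap was widest at day 0. Rpsa, a small subunit protein also known as a laminin receptor, had 14.78, 15.09 and 15.02 in the deletion line, against 15.41, 15.18 and 15.19 in the full-length line. Rps7, which was named after its values were seen, had 14.83, 15.04 and 14.95 in the deletion line, against 14.94, 14.85 and 14.90 in the full-length line. It was among the flattest of the bright genes, its 2 sets of arrays overlapped, and at days 4 and 7 the deletion line was the higher.

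On the large subunit, Rplp0 and Rplp2 form the stalk that recruits elongation factors. Rplp2 had 14.94, 15.19 and 15.12 in the deletion line, against 15.43, 15.20 and 15.23 in the full-length line. Rplp0 had 14.56, 14.80 and 14.76 in the deletion line, against 14.89, 14.80 and 14.75 in the full-length line. The lines therefore differed at day 0 and were within 0.11 of each other at days 4 and 7. Rpl11, which with the 5S RNA can bind and inhibit MDM2, the ubiquitin ligase of p53, had 14.38, 14.70 and 14.64 in the deletion line, against 14.83, 14.62 and 14.68 in the full-length line. Its day 0 arrays were the lowest and the highest of the 6, as in the stalk genes. The other stalk gene Rplp1, the 5S partner Rpl5 and the ubiquitin fusion gene Rps27a had no probe set of their own by the membership rule.

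The lines lay closer together at the later days. From day 0 to day 4, 41 of 48 members were higher at day 4 in the deletion line, with a median of 0.24 log2 units (55.7% of all genes were higher, median 0.06). In the full-length line 44 of 48 were lower at day 4, with a median of -0.22 (46.2% of all genes were lower, median 0.03). Both directions together held for 39 of 48 members and for 18.9% of all genes. Between days 4 and 7 the medians were -0.02 in the deletion line and 0.04 in the full-length line. By day 7 the difference from day 0 was 0.20 in the deletion line, with 39 members higher (52.1% of all genes), and -0.18 in the full-length line, with 45 lower (44.9% of all genes). After quantile normalization these medians were 0.02 in the deletion line and 0.00 in the full-length line for day 4 over day 0, and 0.01 and 0.00 for day 7 over day 0. The lines' comparisons at 1 day share arrays with these time courses, so the same 2 day 0 arrays enter all of them. The deletion array of day 0 was the lowest of the 6 for 36 of 48 members, against 26% of all genes, and the full-length array of day 0 was the highest for 38 of 48, against 16.6%.

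Few members were 2-fold apart between days, and those that were are dim ones or paralogues. At day 4 over day 0 it was Rps27 in the deletion line (10.3% of all genes were) and Rpl3l in the full-length line (13.2%). At day 7 over day 4 it was Rpl3l in the deletion line (10.7%) and Rpl39l and Rpl3l in the full-length line (8.34%). At day 7 over day 0 it was 0 members in the deletion line (11%) and Rpl39 in the full-length line (14.2%).

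**Figure D2:**
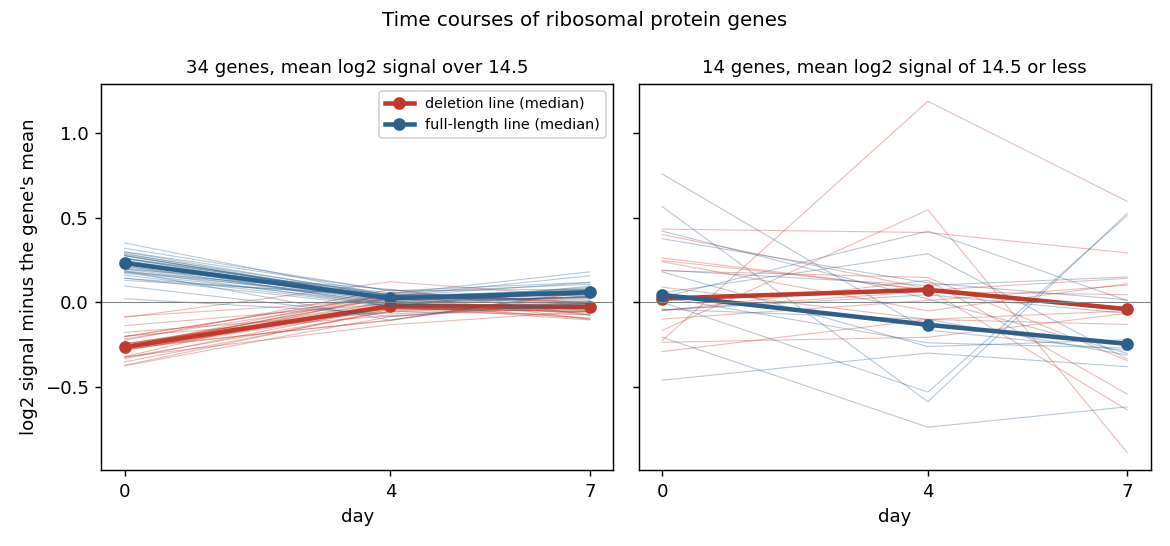
Deviation of log2 signal from the gene's mean (y axis) by day (x axis) for genes with a mean over 14.5 (left, 34 genes) and of 14.5 or less (right, 14 genes); thin lines are genes, thick lines the median of each line. On the left the lines start apart at day 0 and lie close together at days 4 and 7, whereas the genes on the right spread widely.

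The uniformity was a property of the bright genes. Among the 34 with a mean level over 14.5, all 34 were lower in the deletion line at day 0, by -0.72 to -0.11 with a median of -0.49 and an SD over genes of 0.13. All 34 were higher at day 4 than at day 0 in the deletion line, by 0.10 to 0.37, and all 34 were lower at day 4 than at day 0 in the full-length line, by -0.31 to -0.09. The 11 members at 13 or below had a median day 0 difference of -0.02, with 6 lower and 5 higher in the deletion line. Genes outside the family were compared at the same brightness. Of the 29 other genes over 14.5, 27 were lower in the deletion line at day 0, with a median of -0.31. Without those on the lists of TOP genes and fusion proteins, 20 of the remaining 22 were lower, with a median of -0.30. These 22 still held genes of translation on neither list, such as Eif4a1 and Eif5a, and the nucleolar gene Ncl. Actb, which encodes beta-actin, differed by -0.60, the chaperone gene Hspa8 by -0.68 and the transketolase gene Tkt by -0.71, while Bex1 and Hmgn1 differed by 0.04 and 0.05. The median of the other genes was 0.00 up to a level of 8, -0.10 from 8 to 10, -0.07 from 10 to 12, -0.05 from 12 to 13, -0.12 from 13 to 14 and -0.23 from 14 to 14.5, so it had no steady course below 13.

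The day 0 offset was thus shared by other genes of the highest signal class. The dimmest members, Rpl3l at -0.73 and Rpl39 at -0.51, were also lower in the deletion line at day 0. Rpl3l lay near the floor, and its line difference was 1.13 at day 4 and -1.41 at day 7. Of the 17 member probe sets with a mean under 10, 9 were lower and 8 higher at day 0. Whether the offset follows signal level was not tested. Whether the ribosomal protein genes exceed other genes of their brightness was not tested. The offset was nearly gone after quantile normalization, which makes the distribution of values equal on all arrays. The median day 0 difference over members was then -0.03, with 28 of 48 lower in the deletion line (54.9% of all genes). Marker sums differed at day 0 too: the fibroblast sum was higher and the stem cell sum lower in the deletion line, as given above. Their part in the result was not tested. A summed signal weighs the brightest markers most. Whether the lower stem cell sum is separate from the offset of the bright genes was therefore not tested either.

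**Figure D3:**
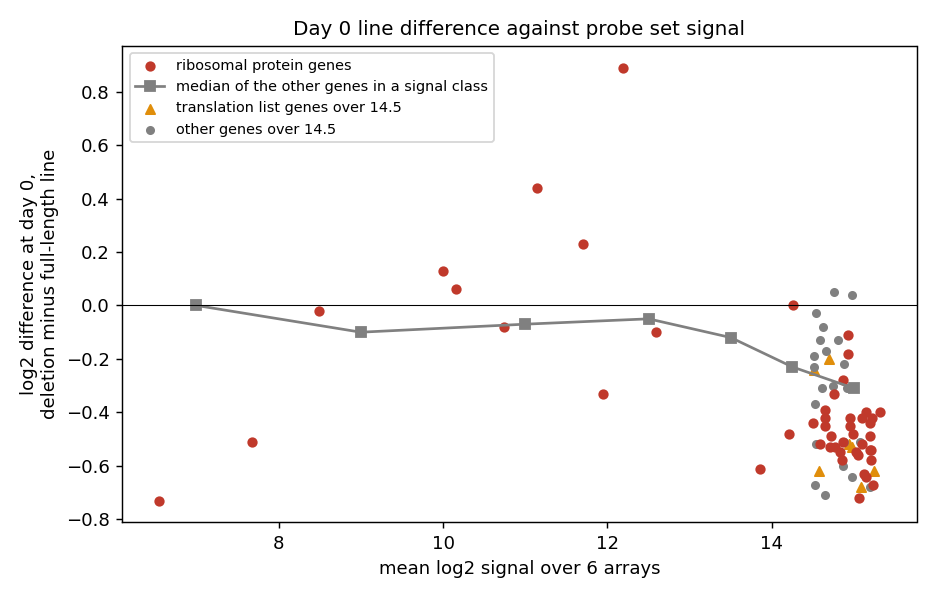
Difference at day 0 between the deletion and full-length lines (y axis, log2) against mean log2 signal (x axis) for ribosomal protein genes (red), other genes with a mean over 14.5 (grey points, translation lists in orange) and the median of other genes per signal class (grey squares). All red points over 14.5 lie below 0, as do 27 of the 29 other genes there, and the red points at lower signal lie on both sides.

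The direction at day 0 was nearly uniform over the brightest probe sets and mixed below them. The 49 genes had 105 probe sets, 100 of them at or above the floor, and 77 of the 100 were lower in the deletion line at day 0. Of the 55 probe sets with a mean over 14.5, 53 were lower, with a median of -0.48. Of the 15 between 13 and 14.5, 10 were lower, with a median of -0.08. Of the 13 between 10 and 13, 5 were lower, with a median of 0.06. Across the 100 probe sets, day 0 difference and mean signal had a Pearson r of -0.55 and a Spearman rho of -0.54; these are probe sets that share genes and arrays, and the values are a description. Of the 21 genes with at least 2 probe sets above the floor, all probe sets were lower in 9 and the directions were mixed in 11. For the mixed case, Rpl27, a large subunit gene named here after its values were seen, had -0.48 on its brightest probe set, at a mean of 14.99, and 0.23 and 0.21 on the others, at 14.09 and 13.99. Rps18 ranged from -0.79 to 0.99 over 6 probe sets. Probe sets whose name ends in a suffix for shared or alternative sequence gave a median of -0.42 over 70. Those without one gave -0.06 over 30, but most of these had a mean of 13 or below. The unsuffixed ones over 14.5 belonged to Rpl19 (-0.51), Rpl27 (-0.48), Rplp0 (-0.33) and Rpsa (-0.63), all lower in the deletion line. With the brightest unsuffixed probe set of each gene that had one, 38 of 48 members were lower at day 0 (54.4% of all genes). Suffix and brightness were not separated. Ribosomal protein genes have many processed pseudogenes, so signals of suffixed probe sets may not come from 1 locus, which these data do not resolve.

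**Figure D4:**
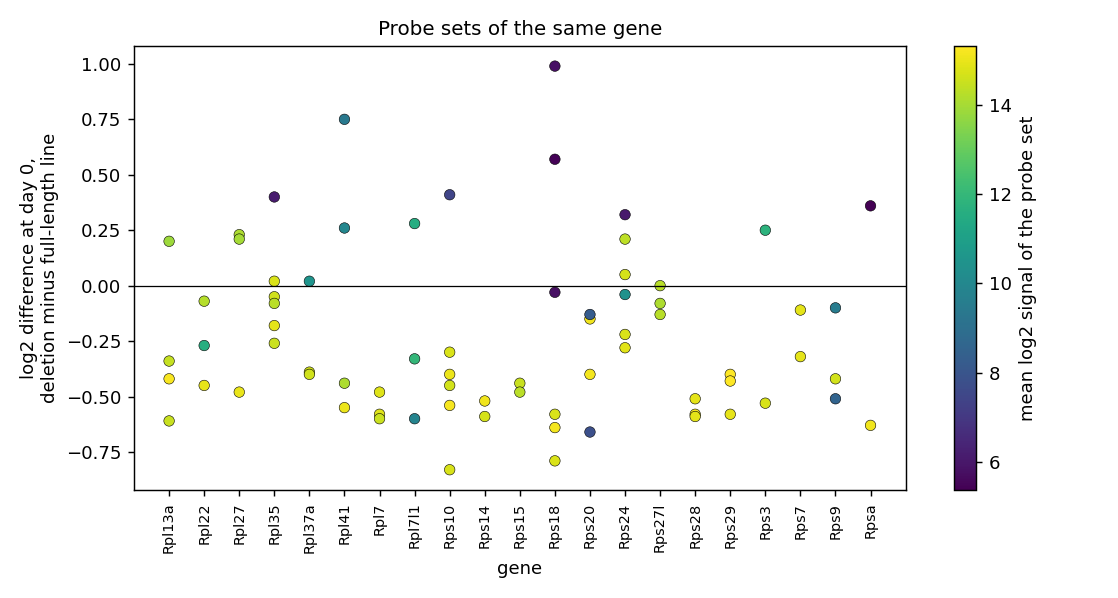
Difference at day 0 between the deletion and full-length lines (y axis, log2) for each probe set above the floor of the 21 genes that have at least 2 (x axis), coloured by mean log2 signal. Most bright probe sets lie below 0, and the dimmer ones of the same genes lie on both sides of it.

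The line difference over all 3 days was fitted with line and day as factors, and the spread was taken from the disagreement of the lines' courses. With limma and Benjamini-Hochberg adjustment over all 13277 measured genes at 0.05, 0 of the 48 members were called, as were 0 of all genes (0%). At an unadjusted p under 0.05, 5 members passed (Rpl27a, Rpl37, Rps18, Rps27 and Rps4l), 10.4% of members beside 12.2% of all genes. The fitted difference was below 0 for 40 of 48 members, with a median of -0.20 over members and -0.06 over all genes. Without either day 0 array the member median was -0.06. All 3 deletion arrays lay below all 3 full-length arrays for 20 members (6.6% of all genes), and above them for 3, Rpl27a, Rpl37 and Rps25 (5.26% of all genes).

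The genes whose probe sets ran against the family were dimmer ones. Rpl37, a zinc-binding protein of the large subunit, had 12.57, 12.55 and 12.43 in the deletion line at days 0, 4 and 7, against 11.68, 11.84 and 11.76 in the full-length line. The deletion line was higher on every day, and the gap was far wider than the variation over days within a line. Its fitted difference was 0.76 (SE 0.13), 1.69-fold, with an unadjusted p of 0.000428 and an adjusted p of 0.242. Rps27, a zinc finger protein of the small subunit, had 8.09, 9.50 and 8.91 in the deletion line, against 8.11, 7.58 and 7.70 in the full-length line. The lines were equal at day 0 and more than 2-fold apart on both later days, and the fitted difference of 1.04 (SE 0.37) had an adjusted p of 0.342. It was 0.59 without the deletion array of day 4, 0.60 without the full-length array of day 4 and 1.56 without either day 0 array. Only Rps27 and Rpl3l were 2-fold apart between the lines at day 4 (5.95% of all genes were) and at day 7 (12.9%).

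Rpl27a, a large subunit gene, had 11.95, 11.76 and 11.83 in the deletion line, against 11.72, 11.45 and 11.42 in the full-length line. Rps25, a small subunit protein that some viral internal ribosome entry sites need, had 11.52, 11.20 and 11.09 in the deletion line, against 11.08, 11.02 and 10.81 in the full-length line. The fitted differences were 0.32 (SE 0.13) for Rpl27a and 0.30 (SE 0.14) for Rps25, neither of which passed (adjusted p 0.399 and 0.436). Averaged with its second probe set, which lay below the floor, Rpl27a had 0.09. In both genes the arrays of the lines did not overlap, though the gap was under 0.5 on each day. The separation was narrow: the lowest deletion array had 11.76 against 11.72 on the highest full-length array for Rpl27a, and 11.09 against 11.08 for Rps25. Rpl12, at the base of the stalk, was higher in the deletion line by 0.06, 0.21 and 0.33 at days 0, 4 and 7, with a fitted difference of 0.20 (SE 0.16). Rps27, Rpl37, Rps25 and Rpl12 have a single probe set each, as do Rpl39 and Rpl14 below. The Rpl37 probe set carries a suffix for shared or alternative sequence. Dim and bright probe sets of 1 gene could disagree at day 0: Rpl41 had -0.55 at a mean of 15.02 and 0.75 at 9.41. Directions were mixed in 11 of the 21 genes above, and all probe sets were lower in 9. The values of these genes therefore describe single probe sets rather than the genes.

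**Figure D5:**
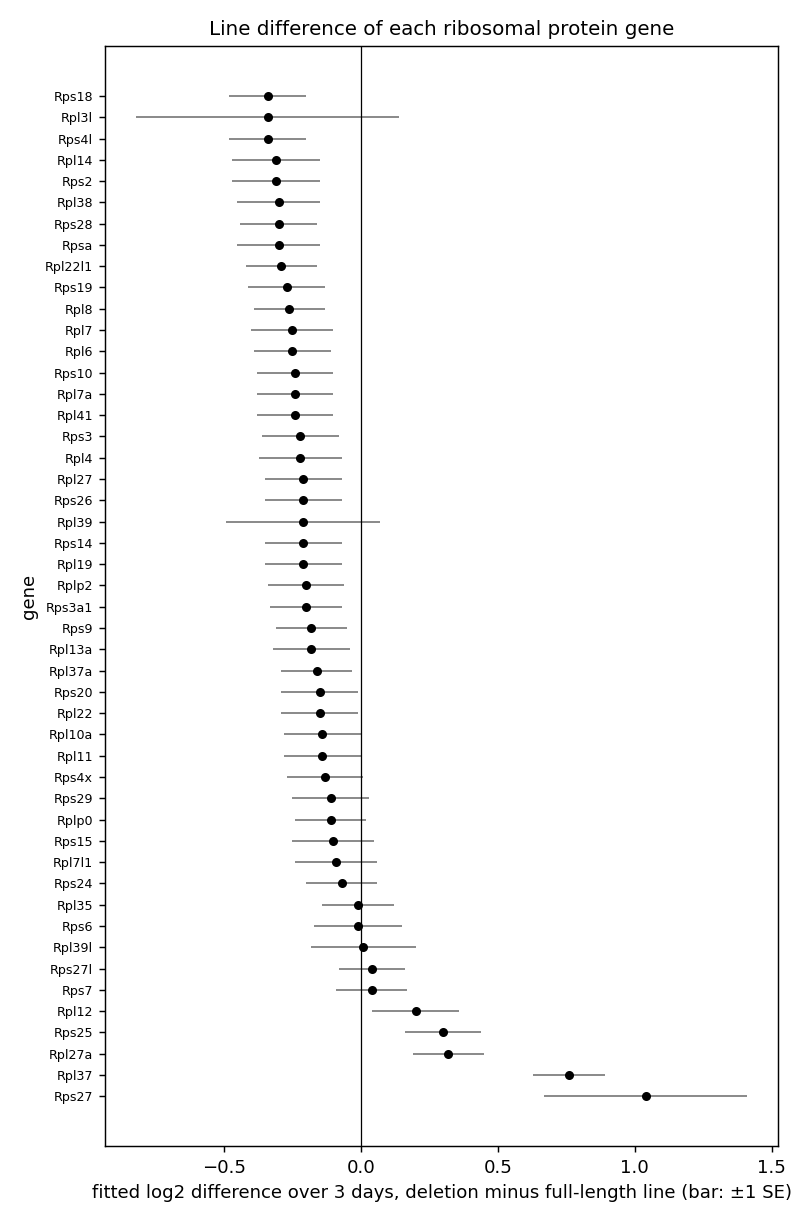
Fitted difference over 3 days between the deletion and full-length lines (x axis, log2; bar, 1 SE either way) for each measured ribosomal protein gene (y axis). Most genes lie a little below 0 and Rpl37 and Rps27 lie furthest above it; 0 of the 48 passed the adjusted test.

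None of the members was called between days. The counts were 0 of 48 for day 4 over day 0 (1.58% of all genes were called), 0 of 48 for day 7 over day 4 (0.0151%) and 0 of 48 for day 7 over day 0 (1.03%), all by limma. At an unadjusted p under 0.05 the members were 0, 3 and 2 in the same order, beside 16.2%, 11.9% and 17.3% of all genes. The fitted median over members was 0.01 in each of the 3 comparisons, which averages the opposite courses of the lines. Without the deletion array of day 0, the median was -0.21 for day 4 over day 0, and without the full-length array of day 0 it was 0.21, so a common direction over days was not settled by these arrays.

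Rpl39, which encodes a very small protein of the exit tunnel, had the widest fitted day difference of the core genes. It had 7.86, 7.69 and 6.98 in the deletion line, against 8.37, 7.45 and 7.33 in the full-length line. The level was lower at each later day in both lines, and the fitted difference of day 7 over day 0 was -0.96 (SE 0.34), 1.95-fold, with an adjusted p of 0.212. Rps6, the target of the S6 kinases, had 10.17, 10.13 and 9.64 in the deletion line, against 10.04, 10.27 and 9.65 in the full-length line. Rpl14, a large subunit gene, had 10.66, 10.84 and 10.17 in the deletion line, against 10.74, 11.13 and 10.72 in the full-length line. Both were lower at day 7 than at day 4 in each line, by a fitted -0.55 (SE 0.20) for Rps6 and -0.54 (SE 0.19) for Rpl14, with adjusted p of 0.333 and 0.332. Averaged with its second probe set, which lay below the floor, Rps6 had -0.28, and Rpl14 had -0.72 to -0.36 with 1 array left out.

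The 6 paralogue genes encode variants of core proteins, and they did not share 1 course. Rpl22l1, the paralogue of the RNA-binding Rpl22, had 13.91, 14.10 and 14.15 in the deletion line, against 14.39, 14.30 and 14.35 in the full-length line, and Rpl22 had 14.67, 15.00 and 14.95 against 15.12, 14.94 and 15.01. Both were lowest in the deletion line at day 0. Rps4l, the autosomal paralogue of the X-linked Rps4x, had 13.61, 13.64 and 13.78 in the deletion line, against 14.22, 13.96 and 13.86 in the full-length line. For Rps4x the values were 14.86, 15.16 and 15.03 in the deletion line, against 15.28, 15.16 and 15.01 in the full-length line. The fitted line difference of Rps4l was -0.34 (SE 0.14, adjusted p 0.406), and -0.20 without either day 0 array.

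Rps27l, a p53 target and paralogue of Rps27, was the flattest member, with 14.21, 14.32 and 14.30 in the deletion line, against 14.21, 14.30 and 14.19 in the full-length line. Its whole range was 0.13 log2 units, against 1.92 for Rps27, the widest of the family. Rpl39l, a paralogue known from male germ cells, had 12.46, 12.57 and 12.66 in the deletion line, against 12.56, 12.03 and 13.07 in the full-length line. In the full-length line it was lowest at day 4 and highest at day 7, at least 2-fold apart, whereas its 3 deletion arrays lay within 0.2. Rpl7l1, a nucleolar relative of Rpl7, had 12.01, 11.82 and 11.79 in the deletion line, against 12.34, 11.94 and 11.62 in the full-length line. Its fitted day 7 over day 0 difference was -0.47 (SE 0.18, adjusted p 0.236), and it was -0.29 without the full-length array of day 0 and -0.27 without that of day 7.

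Rpl3l, the paralogue of Rpl3 found in heart and skeletal muscle, was near the floor, with 6.26, 6.97 and 5.54 in the deletion line, against 6.99, 5.84 and 6.95 in the full-length line. Its arrays overlapped, and its fitted line difference of -0.34 had an SE of 0.48. Rps16, the 1 member not measured, lay between 0 and 1.39 on all arrays, far under the floor; it is a core gene of the small subunit, so that value describes its single probe set rather than the gene.

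Other genes of the ribosome pathway were read in the same fit. None of the 76 mitochondrial ribosomal protein genes was called in any of the 4 comparisons, and their median day 0 difference between the lines was -0.11. Of 15 measured translation factors and other TOP genes, 0 were called. At day 0, 13 were lower in the deletion line (54.4% of all genes were), with a median of -0.34. Of bright genes outside the family and these lists, 20 of 22 over 14.5 and 52 of 73 from 14 to 14.5 were lower too. Eef1a1, the elongation factor that delivers tRNA, had 14.93, 15.16 and 15.18 in the deletion line, against 15.55, 15.25 and 15.27 in the full-length line. Fau, which encodes a ubiquitin-like protein fused to Rps30, had 14.23, 14.56 and 14.49 in the deletion line, against 14.85, 14.57 and 14.66 in the full-length line. Both had their lowest and highest arrays at day 0, like the bright ribosomal protein genes.

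Among 27 nucleolar biogenesis genes, which process rRNA and assemble subunits, 0 were called, and 26 had a fitted value below 0 for day 4 over day 0 (median -0.23) and 25 for day 7 over day 0 (median -0.34), against 44.8% and 44.6% of all genes below 0 in the same comparisons. Of 12 genes of RNA polymerase I and its factors 0 were called, with a median of -0.24 for day 4 over day 0. Of 16 measured regulators 1 was called: Mycn, the MYC family gene that stem cells use beside Myc, fell by 1.70 log2 units at day 7 over day 0 (SE 0.27, adjusted p 0.0426). It had 13.21, 13.01 and 12.11 in the deletion line, against 13.56, 12.50 and 11.26 in the full-length line. The level was lower at each later day in both lines. This call was lost with any 1 array left out, with adjusted p between 0.101 and 0.325, and the fitted value was -0.76 (adjusted p 0.205) when all probe sets of Mycn were averaged. Myc had 9.59, 10.26 and 8.61 in the deletion line, against 9.97, 10.11 and 10.27 in the full-length line. At day 7 its line difference was -1.66.

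The promoters were searched for features that the membership rule did not use. RefSeq starts were matched for 43 of the 49 genes, 51 starts in all. A run of at least 6 C or T bases from 10 before to 10 after the start was present at 23 of 51 (45.1%), against 20.2% of 32851 starts in the table. CTTTC in the same window was present at 7 (13.7%), against 2.44% of all. CCGGAAG, the core bound by ETS family factors such as GABPA, occurred on either strand within the 300 bases from 250 before to 50 after the start at 21 (41.2%), against 8.86% of all. AAGATGGC, the core bound by YY1, occurred likewise at 4 (7.84%), against 2.75%. TATAAA between 40 and 16 bases before the start was found at 1 (1.96%), against 1.99% of all. The number of CpG per 300 bases had a median of 22 at member starts, with a range of 2 to 39, against 7 at all starts; the lowest, 2, was at Rpl3l. A match is a description of letters and not a binding site.

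The day 0 line difference was set beside the pyrimidine run. The 22 measured genes with a run had a median day 0 line difference of -0.42, and the 20 without one had -0.45. Rps18 and Rps27, whose runs are printed above, had day 0 line differences of -0.64 and -0.02. Rpl11, with no run, had -0.45 and followed the bright genes. Over all 3 days the fitted differences were -0.34 for Rps18 and 1.04 for Rps27, neither called. For Rps27 the lines differed by 1.92 at day 4 and 1.21 at day 7. A link between the run and the line difference was not tested.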

How the data were processed

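RNA of 6 samples was hybridised to Affymetrix mouse arrays, 1 per line and day. The authors deposited log2 signals that had been computed with MAS5, an algorithm named in the submitters' processing notes. The log2 scale was read from the values, since the trimmed mean of 2 to their power lay between 496.7 and 496.9 on every array. For scaling target, version and detection calls, the sources used here give nothing. Such scaling makes levels relative to each array's mean, so a shift of most genes would be removed. Of 45037 probe sets, 34945 carried 1 symbol in the platform's annotation, 932 several and 9160 none; 34741 were found by gene ID in a RefSeq table and 0 symbols changed. Values below a floor, a signal of 41.2 (log2 5.37, the median over arrays of the 40th percentile), were set to it for fits and differences.

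The fit used limma 3.58.1 under R 4.3.3 (lmFit, eBayes with trend; line and day additive; 2 residual degrees of freedom, prior 5.63), two-sided, with Benjamini-Hochberg adjustment over 13277 genes at 0.05. The labels name no separate cultures, so p-values measure only the spread between these arrays, and their number limits the precision. Counts of genes 2-fold apart needed the brighter array at 2 times the floor. The fit was tested on simulated data. Alternatives covered the floor, filter, probe set choice, scaling, model and each array left out.

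Named genes were the paralogues and their parents, the 5 highest and 5 lowest members of each fitted effect, the 6 with the widest range, the stalk and 5S genes and Rpsa, and unmeasured members; Rps7, Rpl27 on its probe sets and the genes outside the family were named after their values were seen. Members and lists were chosen with earlier results of these data known. Promoters came from RefSeq on GRCm38.p6, and motifs were exact matches.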

Additional observations from a re-analysis of the deposited data

Results flagged for a closer look

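The values of the lines had opposite signs over time, and none of these differences was tested. The median of the measured ribosomal protein genes was 0.24 log2 units at day 4 over day 0 in the deletion line and -0.22 in the full-length line. At day 7 over day 0 it was 0.20 in the deletion line and -0.18 in the full-length line. After quantile normalization these medians lay between 0.00 and 0.02. At day 7 over day 4 the values, -0.02 in the deletion line and 0.04 in the full-length line, were near 0. Rps27 was 1.41 at day 4 over day 0 in the deletion line and -0.53 in the full-length line. Rpl3l was 0.71 at day 4 over day 0 in the deletion line and -1.15 in the full-length line. At day 7 over day 4 it was -1.43 in the deletion line and 1.11 in the full-length line, on signals close to the floor.

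The membership rule left out 106 probe sets above the floor that carry several symbols, at least 1 of them a ribosomal protein gene. Their median day 0 difference between the deletion and full-length lines was -0.43, with 86 of 106 lower in the deletion line. Of the 68 with a mean over 14.5, all 68 were lower, with a median of -0.54. The deletion array of day 0 was the lowest of the 6 for 76 of the 106 and the full-length array of day 0 the highest for 74.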

How the results depend on the processing

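The count of called members was 0 under every alternative run. Over all genes the calls for day 4 over day 0 numbered 210, and 0 to 246 under the alternatives. Quantile normalization moved the member medians most: the fitted line difference to -0.01, the line difference at day 0 to -0.03, day 4 over day 0 to 0.02 in the deletion line and 0.00 in the full-length line, and day 7 over day 0 to 0.01 in the deletion line and 0.00 in the full-length line. The cause was not tested beyond that the method makes the arrays' distributions equal. With 1 array left out in turn, the member median ranged from -0.21 to 0.21 for day 4 over day 0, from -0.19 to 0.21 for day 7 over day 0, from -0.12 to 0.13 for day 7 over day 4 and from -0.27 to -0.06 for the line difference; the extremes of the day 4 and day 7 over day 0 medians came from leaving out a day 0 array, and those of day 7 over day 4 from leaving out a day 4 array. Scaling to equal medians moved the median of all genes from 0.04 to -0.07 for day 4 over day 0.

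Single genes with small differences turned sign, none of them called. With the mean of probe sets, Rps6 was -0.04 for day 4 over day 0. With probe sets without a suffix, Rps15 was -0.02 for day 7 over day 4 and Rps18 was 0.01 between lines. With equal medians, Rps4x, Rps6 and Rps27l were -0.02 for day 4 over day 0, and Rpl19 was -0.02 and Rps15 -0.01 for day 7 over day 0. With 1 array left out, the ranges for day 4 over day 0 were -0.12 to 0.30 for Rps4x, -0.35 to 1.23 for Rps27, -1.32 to 0.88 for Rpl3l and -0.01 to 0.20 for Rps6. For day 7 over day 4 they were -0.90 to 0.43 for Rps27, -0.04 to 0.26 for Rpl27, -0.06 to 0.29 for Rps15 and -0.37 to 0.02 for Rpl7l1. For day 7 over day 0 they were -0.13 to 0.33 for Rpl19, -0.14 to 0.36 for Rps15, -0.02 to 0.36 for Rps19, -0.59 to 1.00 for Rps27 and -1.18 to 0.42 for Rpl3l. Between lines Rpl3l ranged from -1.07 to 0.20, whereas Rpl37 stayed between 0.69 and 0.80. The Mycn call at day 7 over day 0, checked after its value was seen, held with unsuffixed probe sets, equal medians and quantile normalization (adjusted p 0.0353 to 0.0497) and was lost elsewhere (0.0538 to 0.473), with a fitted value of -2.22 to -1.19 when 1 array was left out. No paired analysis was possible because the labels give 1 sample per group and no replicate numbers; the fit itself matches the lines by day.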

Other observations

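Nucleolar biogenesis genes did not follow the bright ribosomal protein genes at day 0, where their median line difference was -0.07 log2 units. At day 7 the nucleolar genes were higher in the deletion line in 21 of 27, with a median of 0.25, against 44.8% of all genes higher. The mitochondrial ribosomal protein genes were higher at day 7 than at day 4 in 52 of 76, against 49.1% of all genes, with a fitted median of 0.12, beside 0.01 for the cytoplasmic family. None of these genes was called in the 4 fitted comparisons, and these lists were described and not tested as sets.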
